A study of Mus musculus with 16 samples.

Results

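Cytosolic ribosomal proteins, the protein subunits of the 40S and 60S ribosome, were followed in the left ventricle of mice with and without a cardiomyocyte NOS3 transgene. Hearts at baseline and hearts after pressure overload came from different animals. The genes were chosen by name: every gene on the array whose symbol begins with Rpl or Rps and a digit, together with Rplp0, Rplp1, Rplp2 and Rpsa, leaving out the Rps6k kinases. The rule gave 82 genes of the 15787 measured. Of these, 45 encode subunits of the large ribosomal subunit, its stalk included, and 31 encode subunits of the small one. The other 6 are 5 paralogs (Rpl3l, Rpl22l1, Rpl36al, Rpl7l1 and Rps27l) and Rps19bp1, which encodes a binding partner of a ribosomal protein and is no subunit itself. All 82 genes lay well above background on all 16 arrays and none was saturated, so the filter on dim probes removed none of them.

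The heart muscle has to make ribosomes to grow. Ribosomal protein mRNAs are among the most abundant of any cell and are produced in near equal amounts for the subunits of 1 particle. Most begin with a run of pyrimidines at the cap, through which mTOR controls their translation. A few subunits have a second gene with restricted expression: Rpl3l takes the place of Rpl3 in ribosomes of heart and skeletal muscle, whereas Rpl3 serves in tissues in general.

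Whole-genome expression was measured on 1-colour Agilent arrays in 4 groups of 4 mice, each with 2 males and 2 females. NOS3-TG mice carried NOS3, the endothelial nitric oxide synthase, under the alpha-MHC promoter, which is active in cardiomyocytes, and their WT littermates did not. All were on the C57BL/6 N background after 7 generations of backcrossing. WT baseline and NOS3-TG baseline hearts came from animals without surgery. WT TAC and NOS3-TG TAC hearts were taken 10 weeks after transverse aortic constriction, a narrowing of the aorta that loads the left ventricle. No sham-operated group was analysed here, so load and surgery cannot be told apart. Baseline and TAC hearts were also on different slides (2 slides each), so load and slide cannot be told apart either, whereas each slide held both genotypes and both sexes. On every slide NOS3-TG males, NOS3-TG females, WT males and WT females held positions 1, 2, 3 and 4 in that order. Genotype and sex therefore cannot be told apart from the position on the slide. The RNA, 1 µg per array, came from a ring of 20 to 30 mg of mid-ventricular tissue.

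Nos3, which checks the genotype labels, read 6.94 to 8.02 log2 units above the array's 75th percentile on the NOS3-TG arrays and 0.96 to 1.85 on the WT arrays. All 15 cardiomyocyte markers were above background on every array. Between 50.7% and 55.8% of probes were well above background on 13 arrays, but 3 NOS3-TG arrays stood apart. The share was 44.8% for baseline replicate 2 of NOS3-TG, 46.2% for its TAC replicate 3 and 68.1% for its TAC replicate 4. The main NOS3-TG results are given with and without these 3 arrays. Of the animals behind the replicates the labels give only the sex, and the p-values measure the spread between these arrays.

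Where transcription starts, the 61 of the 82 genes with an entry in the RefSeq start table (GRCm38.p6) could be read. An unbroken run of at least 6 C or T bases touching the annotated start (the start base, or the base on either side of it) was present in 22 of these 61 genes, 36.1%, and in 3885 of all 27025 genes in the table, 14.4%. Annotated starts can lie some bases away from the cap, so a start without a run says only that these letters are not there. The windows of 30 bases below show the 5 genes with an entry among the 7 that were lower after TAC in WT. Rps6 and Rpl7a, which did not pass the test there, were added for their long runs. The run is in capitals, and the start is base 16.
Rpl3l, chr17:24727811-24727840, plus strand: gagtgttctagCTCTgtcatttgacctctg
Rpsa, chr9:120127751-120127780, plus strand: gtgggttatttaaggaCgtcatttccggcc
Rpl22l1, chr3:28805493-28805522, plus strand: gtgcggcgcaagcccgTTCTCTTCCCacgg
Rps2, chr17:24720048-24720077, plus strand: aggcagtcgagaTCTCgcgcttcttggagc
Rplp0, chr5:115559452-115559481, plus strand: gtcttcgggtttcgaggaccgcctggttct
Rps6, chr4:86857353-86857382, minus strand: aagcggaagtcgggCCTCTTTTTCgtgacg
Rpl7a, chr2:26910792-26910821, plus strand: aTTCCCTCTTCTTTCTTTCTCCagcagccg
Rpl7a had a run of 21 bases and Rps6 one of 10. Although it did not pass, Rpl7a read 7.81 to 8.04 at WT TAC, below its 8.14 to 8.28 at WT baseline. With its second-brightest probe it passed as lower. Among the 5 genes lower after TAC only Rpl22l1 had a run of at least 6 bases, against 21 of the 56 genes with an entry that were not called. The median run was 4 bases in the former and 3 in the latter, and neither difference was tested. Rpl3l, with the larger fall, has 2 annotated starts, and the one with the longer run, of 4 bases, is shown.

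Against these start sequences stand the levels of the mRNAs. Ribosomal protein mRNAs moved little after TAC in WT hearts, where much of the transcriptome moved. By limma with Benjamini-Hochberg adjustment over all genes, 7 of the 82 passed an adjusted p of 0.05 (8.54%), against 28.3% of all genes tested. All 7 were lower: Rpl3l, Rpsa, Rpl22l1, Rps29, Rpl23a, Rps2 and Rplp0. The median log2 difference over the 82 genes was -0.062 and that over all genes -0.058. A log2 difference within 0.25 of 0 was found for 72 of the 82 genes (87.8%) and for 50.9% of all genes. The residual SD of a ribosomal protein gene had a median of 0.13 log2 units, against 0.19 over all genes, so the small differences did not come with a wider spread. In bulk tissue, fewer cells of a type and less RNA per cell cannot be told apart.

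**Figure D1:**
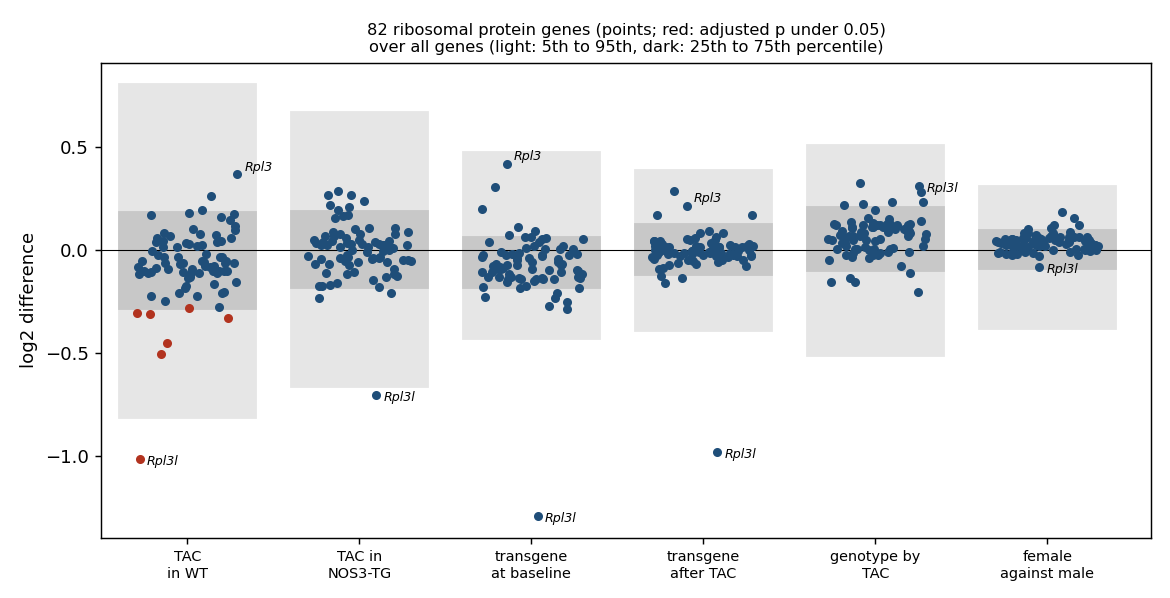
Log2 difference of each of the 82 ribosomal protein genes (points, placed sideways at random) in the 6 comparisons, over the 5th to 95th (light) and 25th to 75th (dark) percentiles of all 15787 genes. Red points passed an adjusted p of 0.05, which 7 did after TAC in WT and none elsewhere; Rpl3l lies far below the other points in 4 of the comparisons, at -1.02, -0.71, -1.30 and -0.98.

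The direction of so small a shift depended on how arrays were scaled. Under quantile normalization the median of the 82 genes after TAC in WT was 0.071, under normexp background correction with quantile normalization 0.060, and in the authors' deposited values 0.043, with all-gene medians of -0.018, -0.013 and -0.022. Scaled on the array median it was -0.022. The members called numbered 3, 6, 3 and 2 of 82 under these settings, beside 27.5%, 26.2%, 29.8% and 19.9% of all genes. Of these members 1, 3, 0 and 0 were higher. Neither a general fall nor a general rise of ribosomal protein mRNA after TAC in WT was therefore held by all scalings. Rpl3l and Rpsa were lower and passed the test under each of these 4 settings.

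**Figure D2:**
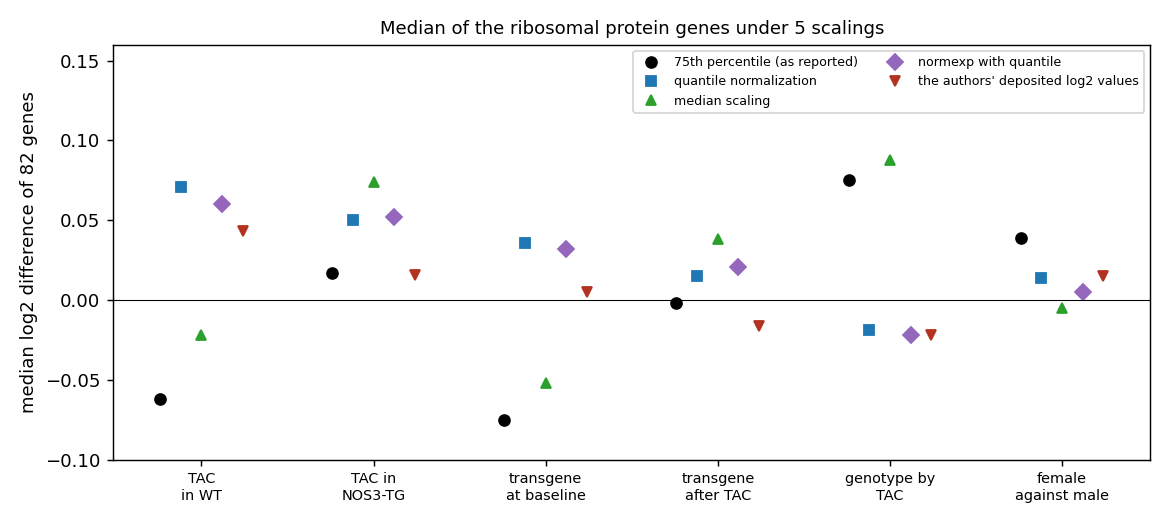
Median log2 difference of the 82 ribosomal protein genes in the 6 comparisons under 5 ways to scale the arrays (symbols). After TAC in WT the median was -0.062 and -0.022 under the 75th percentile and median scaling, and 0.043 to 0.071 under the other 3.

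Rpl3l, the muscle paralog of Rpl3, had the largest TAC difference in WT and the largest residual SD (0.44) of the 82 genes. On the log2 scale above the array's 75th percentile, Rpl3l read 4.80, 5.11, 4.91 and 5.21 on the 4 WT baseline arrays. It read 4.17, 4.14, 3.97 and 3.67 on the WT TAC arrays. All WT TAC values lay below all WT baseline values. The difference was -1.02 (SE 0.29, 95% interval -1.64 to -0.40), or 0.49 of the baseline level, with an adjusted p of 0.0195 by limma. It lost the call without WT baseline replicate 2, WT baseline replicate 4 or WT TAC replicate 4 (adjusted p of 0.0519, 0.0544 and 0.0641), with differences of -0.97, -0.93 and -0.92.

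In NOS3-TG hearts Rpl3l also read low at baseline, in animals without TAC. It read 3.98, 2.64, 4.28 and 3.94 on the NOS3-TG baseline arrays, all below every WT baseline array. After TAC it read 2.56, 3.30, 3.08 and 3.07, below every WT TAC array. The transgene difference was -1.30 (SE 0.29) at baseline, with an adjusted p of 0.0747 by limma, and -0.98 (SE 0.29) after TAC, with an adjusted p of 0.181; neither passed the threshold. The baseline comparison shares the WT baseline arrays with the TAC comparison in WT.

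Each slide held both genotypes, so the transgene difference of Rpl3l could be read within slides, though not apart from the position on the slide. It was -1.64 on slide 1 and -0.95 on slide 4 (baseline), and -1.22 on slide 2 and -0.74 on slide 3 (TAC). NOS3-TG was lower on all 4 slides. Averaged over both loads, a contrast chosen after these values were seen, the difference was -1.14 (SE 0.20), with an adjusted p of 0.0133 by limma, and -0.99 (0.0202) without the 3 arrays that stood apart. Of the 82 genes Rpl3l alone passed in that contrast, beside 2.05% of all genes, and it was also the one member called in each of the 15 alternative fits and 16 fits that left out 1 array (adjusted p 0.00279 to 0.0375).

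In NOS3-TG hearts the TAC difference of Rpl3l was -0.71 (SE 0.29, adjusted p = 0.129 by limma), with overlapping groups. The overlap came from NOS3-TG baseline replicate 2, at 2.64, which is one of the arrays with few probes above background. Without that array the TAC difference in NOS3-TG was -1.08 and passed (adjusted p of 0.00407), the transgene difference at baseline was -0.92 (0.0907) and that after TAC -0.98 (0.0269). Without all 3 arrays that stood apart the 4 Rpl3l differences were -1.02, -1.16, -0.92 and -1.06 (TAC in WT, TAC in NOS3-TG, transgene at baseline, transgene after TAC), and the first 2 passed. The TAC change in NOS3-TG minus that in WT was 0.31 (95% interval -0.57 to 1.19, adjusted p = 0.859), an interval wide enough to hold a difference as large as the changes themselves.

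Rpl3, the general form, had differences above 0 in the same comparisons, none of which passed the test. It read 4.76, 4.97, 4.75 and 5.03 at WT baseline and 5.23, 5.04, 5.53 and 5.19 at WT TAC. At NOS3-TG baseline it read 5.19, 5.47, 5.10 and 5.44, and at NOS3-TG TAC 5.80, 5.30, 5.52 and 5.23. WT baseline was thus the lowest group, below every array of each of the other groups. The log2 differences were 0.37 after TAC in WT (SE 0.14, adjusted p of 0.0725 by limma), 0.42 for the transgene at baseline (0.262), 0.17 after TAC in NOS3-TG (0.493) and 0.22 for the transgene after TAC (0.602). Rpl3 passed after TAC in WT under normexp background correction with quantile normalization (0.49, adjusted p of 0.040) and with array weights (0.485, 0.014). It also passed without NOS3-TG TAC replicate 1 or without WT TAC replicate 2 (adjusted p of 0.0474 each). In 13 of 15 alternative fits and 14 of 16 fits that left out 1 array it did not pass.

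The difference between both probes within an array cannot be read as a ratio of the mRNAs, since probes differ in response, but its change between groups can. Rpl3 minus Rpl3l had a mean of -0.13 ± 0.06 (SD, n = 4) log2 units at WT baseline and 1.26 ± 0.33 at WT TAC. It was 1.59 ± 0.87 at NOS3-TG baseline and 2.46 ± 0.55 at NOS3-TG TAC. The 4 WT baseline arrays spanned -0.18 to -0.04, and no array of another group was below 0.82.

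**Figure D3:**
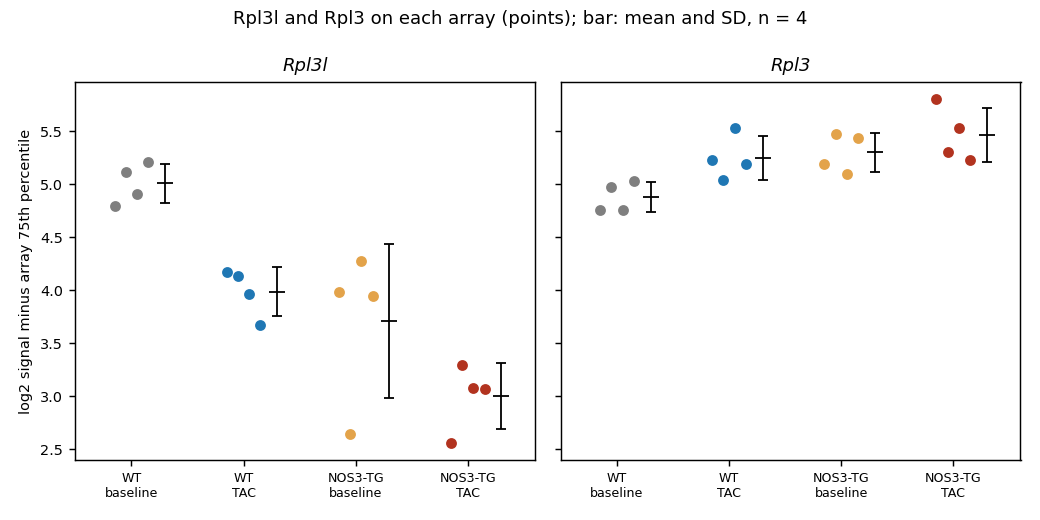
Level of Rpl3l (left) and Rpl3 (right) on each of the 16 arrays, in log2 units above the array's 75th percentile, with mean and SD (n = 4). Rpl3l is highest on the 4 WT baseline arrays (4.80 to 5.21) and Rpl3 lowest there (4.75 to 5.03).

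Cell markers moved between the same groups. After TAC in WT, 2 of 15 cardiomyocyte markers were lower and 1 higher, beside 17.4% and 10.9% of all genes, with a median log2 difference of -0.26. At NOS3-TG baseline none passed, with a median of -0.16. The summed cardiomyocyte level ranged from 3560 to 4320 at WT baseline, 3190 to 4140 at WT TAC, 3230 to 4260 at NOS3-TG baseline and 3090 to 3860 at NOS3-TG TAC, as multiples of the 75th percentile signal. Macrophage and monocyte markers rose, 7 of 11 after TAC in WT (beside 10.9% of all genes) and 2 of 11 at NOS3-TG baseline (beside 0.424% called in either direction), with summed levels of 63.0 to 79.7, 86.6 to 112, 88.6 to 110 and 105 to 121 in the same order. Of 10 fibroblast markers 5 rose after TAC in WT, as did 4 of 10 endothelial markers, and 2 of 5 adipocyte markers fell. Only 1 of these 5 adipocyte markers was above background on every array. Their summed level ranged from 0.498 to 6.93 at WT baseline and from 0.373 to 1.03 at WT TAC. For mural cells (smooth muscle, pericytes), 1 marker of 10 was higher and 2 lower there, and 0 passed at NOS3-TG baseline, with a median of -0.24. The part of cell makeup in the fall of Rpl3l was not tested.

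Among the subunits of the ribosome proper, 5 of 76 passed after TAC in WT, 2 of 45 in the large subunit and 3 of 31 in the small one. Rpsa, a small-subunit protein also known as the laminin receptor precursor, read 4.61, 4.88, 4.67 and 4.37 at WT baseline and 3.89, 4.11, 4.24 and 4.26 at WT TAC. The groups did not overlap. The difference was -0.51 (SE 0.12, adjusted p = 0.00957 by limma), but a second probe for Rpsa, also above background on all 16 arrays, gave 0.063, so the fall rests on 1 probe. Ribosomal protein genes have many processed pseudogenes, and whether probes also bind their transcripts was not tested.

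Rps2, a small-subunit protein near the mRNA entry channel, read 7.34, 7.50, 7.42 and 7.60 at WT baseline and 7.15, 7.24, 7.17 and 7.08 at WT TAC, without overlap. Its difference was -0.30 (SE 0.10, adjusted p = 0.0301 by limma), and its second probe gave -0.28, which did not pass (adjusted p of 0.0863). Rps29, the third small-subunit gene, read 8.04, 7.95, 7.90 and 7.96 against 7.59, 7.79, 7.70 and 7.45, again without overlap. It differed by -0.33 (SE 0.11, adjusted p = 0.0348). Under quantile normalization the differences of Rps2 and Rps29 shrank to -0.10 and -0.088 and did not pass. Each of these 2 genes lost the call under 7 of the alternative settings.

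In the large subunit, Rpl23a, which lies at the exit of the nascent chain, read 7.79, 7.83, 7.79 and 7.74 at WT baseline and 7.31, 7.60, 7.65 and 7.35 at WT TAC. The groups did not overlap, and the WT TAC arrays were the more scattered. The difference was -0.31 (SE 0.10, adjusted p = 0.0379 by limma). It was -0.21 on the second probe (adjusted p of 0.0774) and -0.10 under quantile normalization, and passed in neither. Rpl23a lost the call under 8 of the alternative settings.

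Rplp0 anchors the stalk of the large subunit, which recruits the translation factors, and its mRNA is often used as a reference in quantitative PCR. It read 4.34, 4.72, 4.46 and 4.64 at WT baseline and 4.21, 4.30, 4.27 and 4.24 at WT TAC, just without overlap. The difference was -0.28 (SE 0.09, adjusted p = 0.0353 by limma). Its probe was printed on 10 spots of each array, whose SD within an array was 0.014 to 0.060 log2 units, a measure of spot noise only. The call was lost under 8 of the alternative settings, among them quantile normalization (-0.21, adjusted p of 0.122), median scaling (-0.24, 0.179) and the authors' deposited values (-0.23, 0.0906), and when any of 7 of the 8 WT arrays was left out. The files place this probe on chromosome 8, whereas RefSeq has the gene on chromosome 5. Rplp1 and Rplp2, which pair on the stalk, differed by -0.078 and -0.11 and did not pass.

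Rpl22l1 is the paralog of Rpl22, whose product binds RNA besides its place in the ribosome. It read 3.88, 3.44, 3.52 and 3.62 at WT baseline and 3.19, 3.55, 2.87 and 3.04 at WT TAC. WT TAC replicate 2 lay within the baseline range. The difference was -0.45 (SE 0.14, adjusted p = 0.0281 by limma), whereas that of Rpl22 was 0.039 (adjusted p = 0.756). Rpl22l1 did not pass under 6 of the alternative settings, among them quantile normalization (-0.37, adjusted p of 0.0507), median scaling (-0.41, 0.0857) and leaving out the 3 arrays that stood apart (0.0563), nor in 4 of the 16 fits that left out 1 array (adjusted p up to 0.0915). In the NOS3-TG hearts Rpl22l1 differed by -0.23 after TAC (adjusted p = 0.296).

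**Figure D4:**
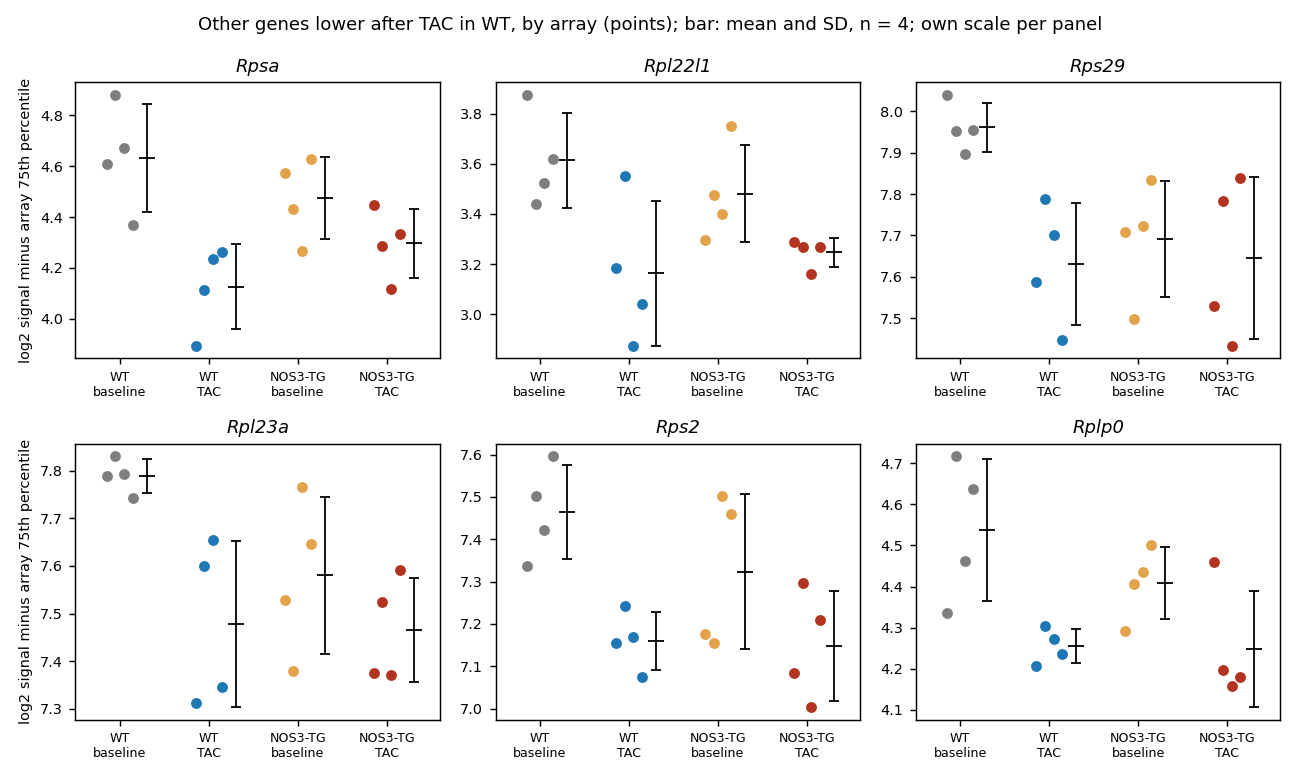
Levels on each of the 16 arrays, in log2 units above the array's 75th percentile, of the 6 genes besides Rpl3l that were lower after TAC in WT, with mean and SD (n = 4); each panel has its own scale. For Rpl22l1 alone do the WT baseline and WT TAC groups overlap.

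The number of genes called after TAC in WT moved with single arrays. It was 1 without WT TAC replicate 4, 2 without any 1 of WT baseline replicates 2, 3 and 4, 4 without WT baseline replicate 1 or WT TAC replicate 1, and 5 without WT TAC replicate 3. It was 9 without WT TAC replicate 2, NOS3-TG TAC replicate 1 or NOS3-TG TAC replicate 3. Rpsa passed in all 16 of these fits, Rpl3l was lost in 3, and each of the other 5 genes in 4 to 7. Without the 3 arrays that stood apart the count was 6. Slide 3, which holds only TAC arrays, was scanned on another day. With that day as a block the TAC difference rests largely on slide 2, so fewer arrays carry it. In that fit 1 gene passed, Rpsa, while Rpl3l had an adjusted p of 0.0647.

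With the probe used for each gene, no ribosomal protein gene rose with an adjusted p under 0.05 after TAC in WT. The 3 with the smallest p among those above 0 were Rpl3, Rpl31 (0.26, adjusted p = 0.0865 by limma) and Rpl39 (0.15, 0.235). Groups that did not overlap were found for 12 of the 82 genes, 1 higher (Rpl3) and 11 lower, beside 27.5% of all genes. Other members fixed by name stayed close to 0: Rps6, the substrate of S6 kinase, differed by 0.060, Rps4x by -0.083, Rpl32 by -0.090, Rpl13a by -0.067, Rps27 by -0.10 and Rpl36a by 0.031. None of these passed, and the 95% interval of Rps6, as an example, was -0.12 to 0.24. Rpl10 at 0.18, Rpl7 at -0.20, Rpl7l1 at 0.047, Rpl36al at -0.11 and Rps27l at 0.17 did not pass either.

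In NOS3-TG hearts, 0 of the 82 genes passed after TAC by limma, beside 11.8% of all genes, and 6 had an unadjusted p under 0.05, as did 27.8% of all genes. The median was 0.017 and that of all genes -0.001, and without the 3 arrays that stood apart the members' median was -0.015. Rpl39, a short protein lining the exit tunnel, read 5.13, 5.17, 4.97 and 5.38 at NOS3-TG baseline and 5.59, 5.31, 5.36 and 5.48 at NOS3-TG TAC, with overlap. Its difference was 0.27 (SE 0.09, adjusted p = 0.0681 by limma). Rps27a, which is made as a fusion with ubiquitin, read 5.62, 5.57, 5.73 and 5.80 against 5.89, 5.83, 5.85 and 5.99, without overlap. It differed by 0.21 (SE 0.07, adjusted p = 0.0797), and passed under quantile normalization (0.27) and in the authors' deposited values (0.21). Rps27l, a paralog that p53 is known to induce, differed by 0.29 (SE 0.12, adjusted p = 0.126) and also had groups without overlap. Without the 3 arrays that stood apart, Rpl39, Rps27a and Rps27l differed by 0.27, 0.14 and 0.28 (adjusted p of 0.253, 0.424 and 0.340).

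Averaged over both genotypes, a contrast added after the values were seen, 14 of the 82 genes passed (17.1%, beside 37.1% of all genes). Higher were Rpl31, Rpl39, Rps27l and Rps27a, by 0.27, 0.21, 0.23 and 0.16. Among the 10 lower were Rpl3l at -0.86, Rpl22l1 and Rpsa both at -0.34, Rps2 at -0.24, Rplp0 at -0.22 and Rpl23a at -0.21. The split by direction depended on the scaling: 11 were higher and 6 lower under quantile normalization, 9 and 3 with normexp, 6 and 7 in the authors' deposited values, and 5 and 1 under median scaling, where the 1 was Rpl3l. Without the 3 arrays that stood apart 0 were higher and 6 lower.

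The transgene comparison at baseline called no ribosomal protein gene. There 0 of the 82 passed by limma (0.424% of all genes did) and 5 had an unadjusted p under 0.05, as did 12.3% of all genes. The smallest p-values belonged to Rpl3l, Rpl3 and Rps29, the last at -0.27 (adjusted p = 0.328), or -0.20 without the 3 arrays that stood apart. The median was -0.075, beside -0.061 for all genes, and 63 of the 82 lay below 0. Within slides, the median was -0.17 on slide 1, which holds NOS3-TG baseline replicate 2, and 0.009 on slide 4, so the shift was seen on 1 of the 2 baseline slides. Quantile normalization gave 0.036, and leaving out the 3 arrays that stood apart gave -0.024. Rps19bp1 read 3.50 on NOS3-TG baseline replicate 2 and 2.58 to 2.71 on the other 3 arrays of that group, against 2.50 to 2.57 at WT baseline, and its difference of 0.31 did not pass (adjusted p = 0.441); without the 3 arrays that stood apart it was 0.09.

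After TAC, 0 of the 82 genes passed between NOS3-TG and WT by limma, beside 0.26% of all genes, and 1, Rpl3l, had an unadjusted p under 0.05, as did 12.2% of all genes. The next by p were Rpl21 (0.29, adjusted p = 0.523) and Rpl3. The median was -0.002 (0.026 without the 3 arrays that stood apart), and the 10th and 90th percentiles were -0.069 and 0.056. Over all genes these percentiles were -0.28 and 0.26.

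The TAC response did not pass as different between genotypes for any of the 82 genes by limma, nor for any of all genes (0%), and 0 of the 82 had an unadjusted p under 0.05, as 7.41% of all genes did. The median of the interaction was 0.075, beside 0.066 for all genes, and -0.019 under quantile normalization. The smallest p-values were those of Rps29 (0.29, adjusted p = 0.693), Rpsa (0.33, 0.696) and Rpl4 (0.23, 0.709). For Rpsa the 95% interval ran from -0.05 to 0.70, so these arrays do not show that the response was alike.

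Between females and males no ribosomal protein gene passed. By limma 0 of the 82 passed, beside 1.32% of all genes, and 0 had an unadjusted p under 0.05, as 15.9% of all genes did. The median difference, female against male, was 0.039, and all 82 genes lay within 0.25 log2 units of 0. The slides differed: the median was 0.155 on slide 4 (baseline), with 77 genes above 0, 0.038 on slide 1 (baseline), and -0.029 and -0.028 on slides 2 and 3 (TAC). The smallest p was that of Rpl30 (0.19, adjusted p = 0.388). Rps4x, which is X-linked, differed by 0.005.

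Other probes for the same genes allowed a check within the array. Of the 82 genes 41 had more than 1 probe, and 45 further probes of 36 genes were above background by the same filter. After TAC in WT 30 of the 45 had the same sign as the probe used, with a median gap of 0.12 log2 units, about the size of the differences themselves. With the second-brightest probe in place of the first, Rps21, Rps25 and Rps3a passed as higher after TAC in both genotypes, at 0.51, 0.50 and 0.49 in WT and at 0.58, 0.69 and 0.61 in NOS3-TG. None of the 3 passed with the brighter probe.

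The factors that build ribosomes were read beside the proteins they assemble. Of 87 measured ribosome biogenesis and nucleolar genes, 23 rose and 3 fell after TAC in WT, beside 10.9% of all genes higher and 17.4% lower, with a median of 0.092. In NOS3-TG hearts 16 rose and 1 fell, beside 6.47% and 5.33%, with a median of 0.089. The comparison of both lists is one of counts and was not tested. In WT, Rrp12, listed under an older name on the array and needed for the export of both subunits, rose by 1.57 (adjusted p = 0.000392 by limma). Tsr1, which matures the small subunit, rose by 0.75, and Nop58, the core protein of box C/D snoRNPs, by 0.67. Noc3l, a large-subunit assembly factor, rose by 0.59. The same 4 genes rose by 0.84, 0.61, 0.44 and 0.38 in NOS3-TG hearts. Emg1, Noc4l and Tsr2, which all serve the small subunit, fell in WT by 0.41, 0.31 and 0.35. Without the 3 arrays that stood apart, 3 biogenesis genes rose in NOS3-TG hearts. Fewer arrays enter that fit, and the share of all genes called in it is not reported here. Over the alternatives the all-gene count after TAC in NOS3-TG ranged from 404 to 2993.

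**Figure D5:**
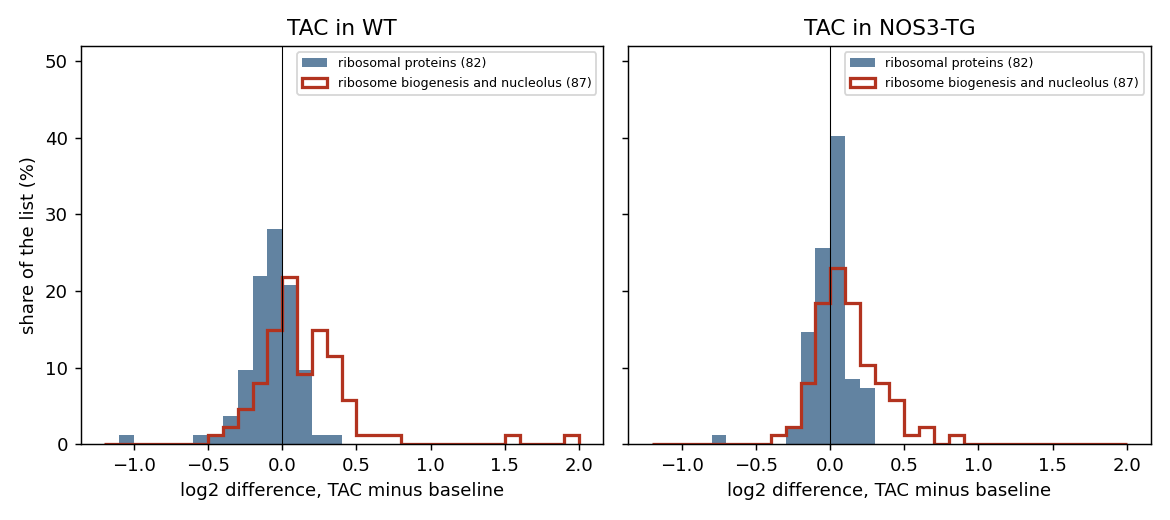
Share of each list (%) in bins of 0.1 of the log2 difference, TAC minus baseline, in WT (left) and NOS3-TG (right), for the 82 ribosomal protein genes (filled) and 87 ribosome biogenesis and nucleolar genes (outline). The medians are -0.062 and 0.092 in WT, and 0.017 and 0.089 in NOS3-TG.

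In the list of RNA polymerase I, which makes the ribosomal RNA, 0 of 21 genes rose and 2 fell after TAC in WT. The 2, 9.52% of the list beside 17.4% of all genes lower, were the catalytic subunit Polr1a, by 0.53, and the shared subunit Polr2e, by 0.33. In a list drawn up for mTOR and MYC control of translation, 1 of 39 rose and 12 fell in WT, and 0 rose and 6 fell in NOS3-TG. Not every gene in it is a known regulator of ribosome production. Called in either direction were 33.3% and 15.4% of the list, beside 28.3% and 11.8% of all genes. Of all genes 17.4% were lower in WT and 5.33% in NOS3-TG, and 10.9% and 6.47% were higher. The calls in the list thus leaned more to falls than those over all genes, which was not tested. The 1 that rose was Myc, a transcription factor that drives ribosome production, at 0.79 (adjusted p = 0.0279 by limma). Among those that fell in WT were Ddit4l, an inhibitor of mTOR, by 1.29, the kinase Rps6ka5 by 1.20, the MYC partner Max by 0.57, and Eif4ebp2, which represses cap-dependent initiation, by 0.54. The fallen members thus included both activating and inhibiting regulators.

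The share of translation factors called after TAC in WT was below the 28.3% of all genes in each list, which is no test of a difference: 17.9% for initiation, 15.8% for elongation and termination, 14.3% for other genes with a 5′ pyrimidine tract and 20.8% for quality control. Of 39 initiation factors 3 rose and 4 fell, among them Eif1a at 0.42 and Eif2b1 at -0.42, and none passed in NOS3-TG. Of 19 elongation and termination factors 1 rose and 2 fell: Gspt1 rose by 0.25, and Eef1d and Dohh fell by 0.30 and 0.34. Of 28 other genes whose mRNAs are known to carry a 5′ pyrimidine tract, 2 rose (Tmsb10 by 0.98 and Snhg5 by 0.49) and 2 fell (Ybx1 by 0.36 and Eef1d by 0.30). In the ribosome quality control and nascent chain list 4 of 24 rose and 1 fell, Hsph1 and the ribosome-bound chaperone Dnajc2 rising by 0.56 and 0.47. None of the genes in these lists passed in either transgene comparison.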

How the data were processed

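Each of the 16 arrays gave 1-colour Agilent intensity values. Per the file headers, Agilent Feature Extraction 9.5.1.1 made these intensity values from the scans, and the authors deposited the processed signal, already background-corrected. A second table holds the authors' deposited log2 values of 22057 probes. The sources used here do not give its normalization; its arrays correlated with log2 processed signal at r of 0.99959 or more, with column medians of 9.95 to 9.99 and no centring of genes.

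Here log2 processed signal was set relative to the array's 75th percentile, probes well above background on at least 4 arrays were kept, and a gene took its brightest probe by mean. limma 3.58.1 in R 4.3.3 fitted 4 group means and sex (11 residual degrees of freedom), with Benjamini-Hochberg adjustment over 15787 genes, and was tested on simulated data. Members, lists and comparisons were chosen with earlier results of these data known. Named were a fixed set of paralogs, stalk and reference genes, called members (up to 10 a direction, or the 3 with the smallest p) and up to 4 called genes a list, some of which are not reported here; Rps21, Rps25, Rps3a and Rps19bp1 were named after their values were seen. Older array symbols were updated through RefSeq. Alternatives covered scaling, filter, probe choice, model terms, slide, scan day and each array left out; no member was saturated, so none was left out for that. The number of arrays limits the precision.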

Additional observations from a re-analysis of the deposited data

Results flagged for a closer look

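Among 36 sets of 4 arrays (8 genes, Rpl3, Rpl3l and the other 6 lower after TAC in WT, and the median of all members, in 4 groups each), 2 had a value whose gap to the nearest other array exceeded 0.829 of the group's range, Dixon's 95% limit for 4 values; chance alone gives about 1 in 20. Rplp0 read 4.46 on NOS3-TG TAC replicate 1, above 4.16 to 4.20 on the other 3 arrays of that group. Rpl22l1 read 3.16 on NOS3-TG TAC replicate 3, where the nearest of the others read 3.27.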

How the results depend on the processing

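Of 82 members, the count called after TAC in WT (7) was 3 under quantile normalization, 3 in the authors' deposited values, 3 when only the compared groups were fitted, 2 under median scaling, 2 without the filter on dim probes and 1 with scan day as a block. It was 6 with normexp, 8 with second probes (3 of them higher), 9 with the filter on all arrays, 9 with a variance trend and 10 with array weights, and 1 to 9 when an array was left out. The median of the members there (-0.062) became 0.071 under quantile normalization, 0.060 with normexp and 0.043 in the deposited values, and -0.095 to -0.024 when an array was left out. After TAC in NOS3-TG (0 called), 4 passed with array weights, 3 with the mean of all probes, 3 with second probes, and 1 each under quantile normalization, with normexp, in the deposited values and without the 3 arrays that stood apart, and 0 to 1 when an array was left out. At baseline the transgene called 1 member, Rpl3l, with array weights, the filter on all arrays, a variance trend, normexp or the deposited values, and the median (-0.075) was 0.036 under quantile normalization and 0.032 with normexp. After TAC the transgene called 0 to 1 members when an array was left out, the 1 being Rpl3l without NOS3-TG baseline replicate 2. The median of the interaction (0.075) was -0.039 with array weights. With second probes Rpsa reversed to 0.063 after TAC in WT, and averaged over genotypes Rpsa and Rpl29 reversed to 0.129 and 0.118. The cause of these changes was not tested.

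Over all genes the count called ranged over the alternatives from 2710 to 5567 (TAC in WT), 404 to 2993 (TAC in NOS3-TG), 25 to 506 (transgene at baseline), 3 to 91 (transgene after TAC), 0 to 1 (interaction) and 24 to 735 (sex). Biogenesis genes that rose numbered 15 to 30 in WT and 3 to 19 in NOS3-TG. With slide as a random block (within-slide correlation 0.06) 7 members passed after TAC in WT. TAC has no fit with slide as a fixed block, since each slide holds 1 load. No paired analysis was possible because replicate numbers were given here in accession order and pair no animals.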
